A study of Glycine max with 12 samples.

Results

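The genes described here are 107 of the 39811 soybean (Glycine max) genes in the deposited table. They were chosen by a rise with manganese (Mn) in old leaves and at most a small rise or limited fall in young leaves. Leaf RNA was sequenced in 12 libraries, 3 in each of 4 groups: old leaves at 100 µM Mn, old leaves at 5 µM Mn, young leaves at 100 µM Mn and young leaves at 5 µM Mn. All plants grew in nutrient solution, were moved to one of the 2 Mn levels (given as the sulfate) once the fifth leaf stage began, and had the solution changed every 3 days. The labels do not give the cultivar, the days at high Mn, the position of the old and young leaves or the plants behind a replicate, so p-values measure only the spread between these samples.

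Mn is needed by every plant cell, at the site in photosystem II where water is split and in a mitochondrial superoxide dismutase, and it is harmful in excess. It moves poorly in the phloem, so it tends to stay in the leaves it first reaches, and in many legumes brown speckles of Mn toxicity show first on older leaves. Genes selected for a rise in old leaves without a similar rise in young leaves are therefore of interest where leaf ages share a supply.

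Members were selected on 4 conditions, all set on FPKM (the fragment number of a gene divided by its length and by the library total). R is the log2 ratio of the group means, 100 over 5 µM, with 1 added to each mean. A member had R of 1 or higher in old leaves, R between -1 and 0.3 in young leaves, a mean of at least 3 FPKM in old leaves at 100 µM, and no overlap between the old-leaf groups. Of 588 genes that met the old-leaf conditions, 107 met the young-leaf condition. Another 249 had R in young leaves above 0.3 and below 1, 231 had R of 1 or higher there, and 1 had R below -1. The response to Mn in either leaf age and the difference between these responses were used by the selection, so their values are given as a description. The files do not pair the gene IDs with names, and 0 of 39811 IDs matched the RefSeq gene table, so the members are given by ID, without the ending .Wm82.a2.v1, and no function is assigned. The labelled tissue could not be checked against marker genes for the same reason, and the extraction text speaks of nodules where each sample is labelled leaf.

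**Figure D1:**
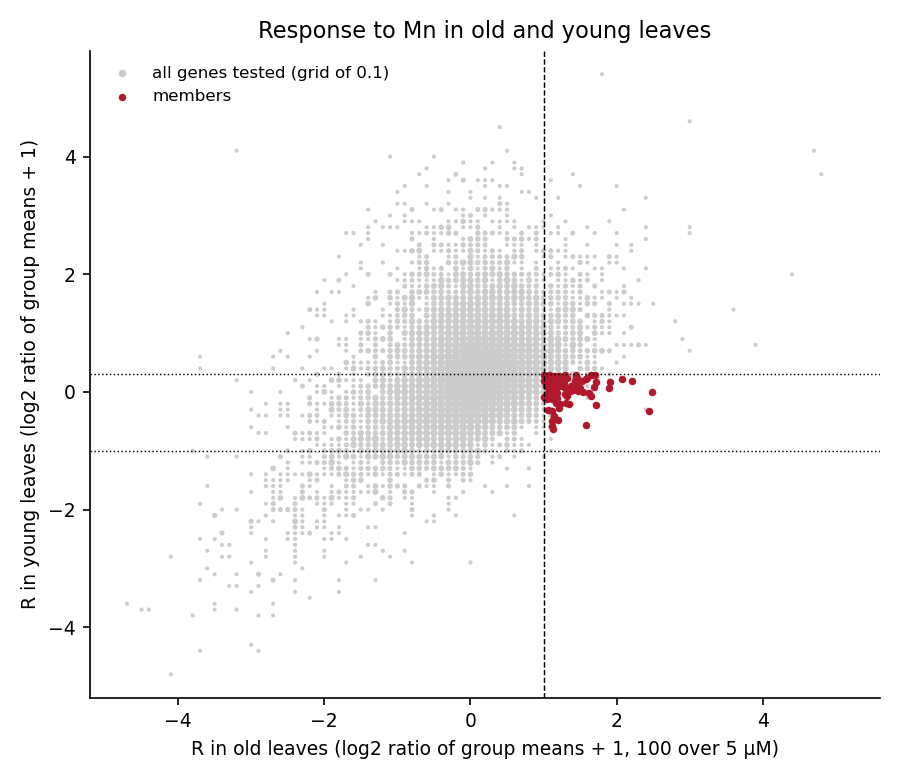
Response to Mn (R, log2 ratio of group means + 1, 100 over 5 µM) in old leaves on the x axis and in young leaves on the y axis. Red points are the 107 members; grey points are all 28267 genes tested, on a grid of 0.1, with larger points for more genes; the dashed line is the limit for old leaves and the dotted lines are the limits for young leaves. The members lie right of 1 in old leaves, between -0.62 and 0.29 in young leaves.

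Libraries held 17774122 to 21070730 fragments. In each member the lowest library of old leaves at 100 µM held 31 to 22668 fragments, with a median of 323 over members, and the 3 libraries of old leaves at 5 µM together held 38 to 35918. Counting error was thus small for most members. Genes with near-identical copies are frequent in soybean, and how shared fragments were counted is not given in the sources used here.

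The strongest rise by R was that of Glyma.06G065400. Its FPKM was 16.6, 24.6 and 33.3 in old leaves at 100 µM, against 6.36, 2.85 and 1.65 in old leaves at 5 µM, a 6.87-fold ratio of means (R of 2.49). Young leaves held 11.4, 11.5 and 9.06 at 100 µM, against 10.9, 11.6 and 9.57 at 5 µM. The old-leaf groups did not overlap, the young-leaf groups did, and each young-leaf value lay between those groups.

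Glyma.03G036500 was next and differed in where it was expressed. It stood at 39.0, 47.4 and 58.2 FPKM in old leaves at 100 µM, against 5.70, 8.01 and 10.5 in old leaves at 5 µM (R of 2.44). In young leaves it had 0.242, 0.310 and 0.351 at 100 µM, against 0.568, 0.594 and 0.736 at 5 µM. All 6 young-leaf values were below the lowest old-leaf value, and the young-leaf groups did not overlap. This member had the widest gap of all, with the lowest value at 100 µM 3.71 times the highest at 5 µM in old leaves.

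The most abundant member in old leaves at 100 µM, Glyma.02G305400, had 546.6, 515 and 697.9 FPKM there, against 353.3, 258.7 and 228.4 in old leaves at 5 µM (R of 1.06). It was more abundant in young leaves, with 1445, 1227 and 1280 at 100 µM, against 1590, 1453 and 1827 at 5 µM. The old-leaf values did not overlap the young-leaf values at either Mn level. Glyma.06G295700, second in abundance, had the opposite placing. It stood at 385.9, 304.1 and 366.5 in old leaves at 100 µM, against 185.1, 108.3 and 191.3 in old leaves at 5 µM, and at 37.3 to 62.3 and 35.9 to 80.4 in young leaves at 100 and 5 µM.

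Glyma.10G200500, picked after its values were seen, showed the pattern with the least scatter. It had 41.6, 48.0 and 50.0 FPKM in old leaves at 100 µM, against 21.8, 22.3 and 21.8 in old leaves at 5 µM. Young leaves held 22.8, 25.0 and 19.96 at 100 µM, against 23.4, 24.7 and 22.8 at 5 µM. Only the 3 old-leaf libraries at 100 µM stood apart for this gene.

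**Figure D2:**
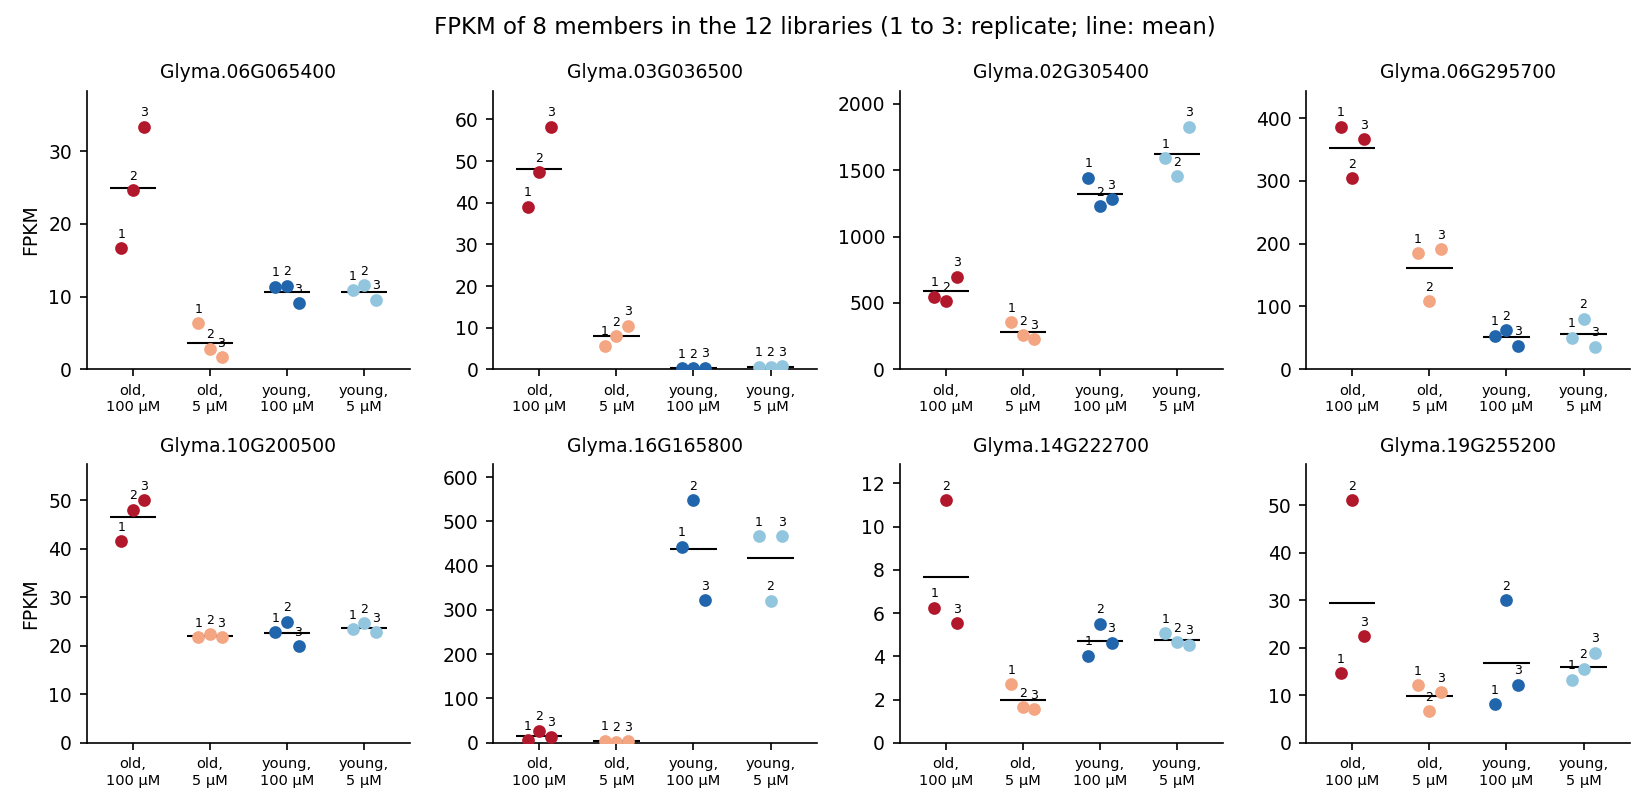
FPKM (y axis, linear from 0) of 8 members in each group (x axis); points are libraries numbered by replicate and lines are group means of 3. Old leaves at 100 µM lie above old leaves at 5 µM in each panel, while the young-leaf groups stand below, between or above them; in Glyma.19G255200 replicate 2 is the highest at 100 µM in both leaf ages.

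Over all members R in old leaves ran from 1.00 to 2.49 with a median of 1.21, and the ratio of means without an added 1 ran from 2.03 to 7.56 with a median of 2.75. A ratio of 3 or more was reached by 42 members. The gap between the groups was often narrow. The lowest old-leaf value at 100 µM was at least 2 times the highest at 5 µM in 19 members and under 1.1 times in 4. Genes that also had R of 1 or higher in young leaves reached further, with a median of 1.42 and a highest R of 4.82 in old leaves.

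Members near a limit were close to genes outside it. Glyma.08G072800, just inside the old-leaf limit at 1.002, had 15.8, 20.8 and 21.2 FPKM in old leaves at 100 µM, against 9.12, 7.77 and 10.5 at 5 µM. Glyma.13G118300, just outside at 0.995, had 12.1, 10.5 and 14.5, against 7.14, 6.14 and 3.88. At the upper young-leaf limit the nearest values were 0.294 inside and 0.304 outside, and 480 genes failed that limit alone. At the lower young-leaf limit the lowest member had -0.624 and the nearest gene outside -1.021. At the limit on abundance the nearest means were 3.07 inside and 2.98 outside. A further 17 genes failed only because the old-leaf groups overlapped.

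A limma model was fitted to log2(FPKM + 1) of the 28267 genes with at least 1 FPKM in at least 3 libraries, with Benjamini-Hochberg adjustment over all of them and a call below an adjusted p of 0.05. All 107 members were in it, since old leaves at 100 µM alone carried them past the filter. In this fit 101 members were called higher at 100 µM in old leaves, where 10.8% of all genes tested were called higher and 5.31% lower. Median-of-ratios rescaling divides each library by the median ratio of its genes to their geometric mean over libraries, which gave factors of 0.83 to 1.146. After it 92 members were called higher, beside 7.90% of all genes higher and 7.73% lower. Fitted on the 6 old-leaf libraries alone, 47 members were called higher, beside 1.82% of all genes. The selection used the same contrast, so these counts add nothing to it. The joint fit estimates the spread of a gene from all 12 libraries, and the last fit from the 6 old-leaf libraries. A joint fit with a weight for each group by its spread called 75 members higher, beside 1425 of the 28267 genes. Why the counts differ between these fits was not tested. The spread of members was not the same in each group. The median SD over members on the log2 scale was 0.266 in old leaves at 100 µM, 0.439 in old leaves at 5 µM, 0.227 in young leaves at 100 µM and 0.166 in young leaves at 5 µM. In the same order it was 0.141, 0.266, 0.136 and 0.142 over all genes tested, so members had the larger median in each group.

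In young leaves R of the members had a median of 0.08, below the median of 0.27 over all genes tested. The limma fit called 1 member lower at 100 µM, beside 5.58% of all genes, and 0 members higher, beside 29.6% of all genes. The selection limited R in young leaves to between -1 and 0.3, which works toward a low median and few calls. The comparison with all genes is thus a description. After median-of-ratios rescaling, which moved the median over all genes by -0.28 on the log2 scale, 6 members were called lower, beside 12.7% of all genes, and 0 higher, beside 3404 of the 28267 genes. The member called lower was Glyma.13G084000, with 93.1, 119.8 and 64.0 FPKM in young leaves at 100 µM, against 138.1, 128.9 and 148.7 at 5 µM, while old leaves had 187.1, 246.5 and 250.2 at 100 µM, against 120.7, 91.8 and 102.1 at 5 µM. The groups were thus ordered in opposite ways in the 2 leaf ages, without overlap in either. Glyma.19G222500 had the lowest R in young leaves, with 10.7, 9.49 and 5.96 at 100 µM, against 13.9, 14.97 and 13.1 at 5 µM. The count of 1 was 0 without replicates 2 or 3 of old leaves at 100 µM, without replicate 3 of young leaves at 100 µM or without any one library of young leaves at 5 µM. It was 2, both lower, without replicate 2 of old leaves at 5 µM or replicate 2 of young leaves at 100 µM. In that order 1723 and 1048 of the 28267 genes were called lower. Without replicate 3 of old leaves at 5 µM it was 3, with 1 higher and 2 lower, beside 11076 and 2205 genes.

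A missing call does not show that a member stayed the same in young leaves. The 95% interval of the young-leaf change lay within -1 and 1 on the log2 scale for 91 members, reached 1 or more for 8 and -1 or less for 8. The added 1 also hides changes at low levels. In 18 members both young-leaf means were under 1 FPKM, and 7 of these 18 had a young-leaf mean at 100 µM more than 2 times that at 5 µM, with none above 0.254 FPKM at 100 µM. Another 2, Glyma.03G036500 and Glyma.13G280000, had less than 0.5 times their 5 µM mean.

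Glyma.20G137200 was one of the 7. In young leaves it had 2, 11 and 13 fragments at 100 µM, against 0, 2 and 4 at 5 µM, where old leaves had 1009, 796 and 862 at 100 µM, against 69, 124 and 267 at 5 µM. Its FPKM was 24.4, 19.9 and 19.8 in old leaves at 100 µM, against 1.79, 2.80 and 6.96 at 5 µM. Glyma.18G228600 had 7.23, 6.25 and 8.23 FPKM in old leaves at 100 µM, against 0.704, 0.184 and 1.98 at 5 µM, and 2, 6 and 1 fragments in young leaves at 100 µM, against 0, 1 and 0 at 5 µM. Glyma.11G124000 had 3, 6 and 3 fragments in young leaves at 100 µM and none in the 3 young-leaf libraries at 5 µM. For such members, "old leaves only" describes a size in FPKM, while their summed fragments in young leaves were also more at 100 µM than at 5 µM, at a level near the detection limit.

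The difference between the responses (old minus young) was called above 0 in 46 members, beside 0.916% of all genes. For the other 61 members the data do not show a response that differs between leaf ages at this threshold. The selection fixed the direction of this difference. The count rested on single libraries, at 18 and 15 without replicates 2 and 3 of old leaves at 100 µM, 27 and 7 without replicates 1 and 3 of young leaves at 100 µM, and 16 and 12 without replicates 1 and 3 of young leaves at 5 µM. In the same order 61, 52, 166, 34, 63 and 41 of the 28267 genes were called above 0.

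The level in young leaves, compared with old leaves of the same Mn supply, was no condition of the selection. It does share the libraries, so that a low value of old leaves at 5 µM or a high one at 100 µM, both favoured by the selection, moves the comparison with young leaves. Members lay on both sides of old leaves. At 5 µM the mean in young leaves was below that of old leaves in 54 members, lay between the old-leaf means at 5 and 100 µM in 37, and was at or above the old-leaf mean at 100 µM in 16. These are 50.5, 34.6 and 15% of the members, beside 63.6, 9.1 and 27.2% of all genes tested. The middle class is wider for a member, whose old-leaf means the selection set apart, so the shares of members and of all genes are not directly comparable.

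At 5 µM, 26 members were called higher in young than in old leaves (17.5% of all genes were) and 36 lower (28.0% of all genes were). At 100 µM, 11 members were called higher in young leaves (22.8% of all genes were) and 73 lower (17.8% of all genes were). The selection took members with high values in old leaves at 100 µM, which favours a lower level in young leaves there, so nothing is read from the counts at 100 µM against these shares. At 5 µM low values in old leaves, also favoured by the selection, work toward a higher level in young leaves. The shares of all genes at 5 µM depended on the scaling: after median-of-ratios rescaling 22.4% of all genes were called higher in young leaves and 21.2% lower, beside 26 and 28 members, and the median difference over all genes moved by 0.14 on the log2 scale.

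Among the 54 members with the lower level in young leaves, the median over members was 2.55 FPKM in young leaves at 100 µM, against 16.1 in old leaves at 100 µM, and 2.27 in young leaves at 5 µM, against 6.62 in old leaves at 5 µM. At 100 µM, 54 of 54 were called lower in young leaves, and at 5 µM 36 of 54. The definition fixes the direction at 5 µM and, with the limits on R, also at 100 µM, so these counts are a description. Glyma.08G103400 had 11.98, 14.5 and 12.6 FPKM in young leaves at 100 µM, against 198.6, 185.3 and 253.2 in old leaves at 100 µM. At 5 µM it had 12.2, 10.6 and 16.6 in young leaves, against 90.8, 66.5 and 47.9 in old leaves. The log2 difference was -3.92 (SE 0.23) at 100 µM and -2.27 (SE 0.23) at 5 µM.

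In the 37 members of the middle class, the young-leaf mean at 5 µM exceeded that of old leaves at 5 µM and fell short of that of old leaves at 100 µM. At 5 µM 10 were called higher in young leaves, a direction the definition fixes, and at 100 µM 19 were called lower. In Glyma.14G222700 young leaves had 4.04, 5.51 and 4.63 FPKM at 100 µM, against 6.24, 11.2 and 5.53 in old leaves at 100 µM. At 5 µM they had 5.07, 4.67 and 4.54, against 2.72, 1.63 and 1.56 in old leaves. The young-leaf values were higher than the old-leaf values at 5 µM without overlap (log2 difference 0.98, SE 0.22), and at 100 µM the highest young-leaf value, 5.51, was just under the lowest old-leaf value, 5.53 (log2 difference -0.55, SE 0.22).

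In the remaining 16 members, old leaves at 100 µM averaged at or below the mean of young leaves at 5 µM, which defines the class. Compared at 100 µM in both leaf ages, old leaves had the higher mean in 1 of the 16, Glyma.06G238100, with 6.24 FPKM in young leaves, against 7.88 in old leaves. Limma called all 16 higher in young leaves at 5 µM, which the definition and the selection together fix in direction, and 11 at 100 µM. The medians were 53.4 FPKM in young leaves at 100 µM, against 18.7 in old leaves at 100 µM, and 46.5 in young leaves at 5 µM, against 5.89 in old leaves at 5 µM. Glyma.16G165800 was the extreme case, with 442.9, 547.4 and 321.4 FPKM in young leaves at 100 µM, against 6.12, 26.9 and 13.8 in old leaves at 100 µM. It had 466.4, 320.7 and 466.1 in young leaves at 5 µM, against 4.87, 2.02 and 3.49 in old leaves at 5 µM. The log2 difference between leaf ages was 4.90 (SE 0.42) at 100 µM and 6.58 (SE 0.42) at 5 µM. Glyma.14G086300, abundant in both leaf ages, had 361.2, 467.6 and 362.3 in young leaves at 100 µM, against 120.7, 261.9 and 307.4 in old leaves at 100 µM. At 5 µM it had 404.6, 378.3 and 316.1 in young leaves, against 101.6, 86.8 and 62.4 in old leaves.

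**Figure D3:**
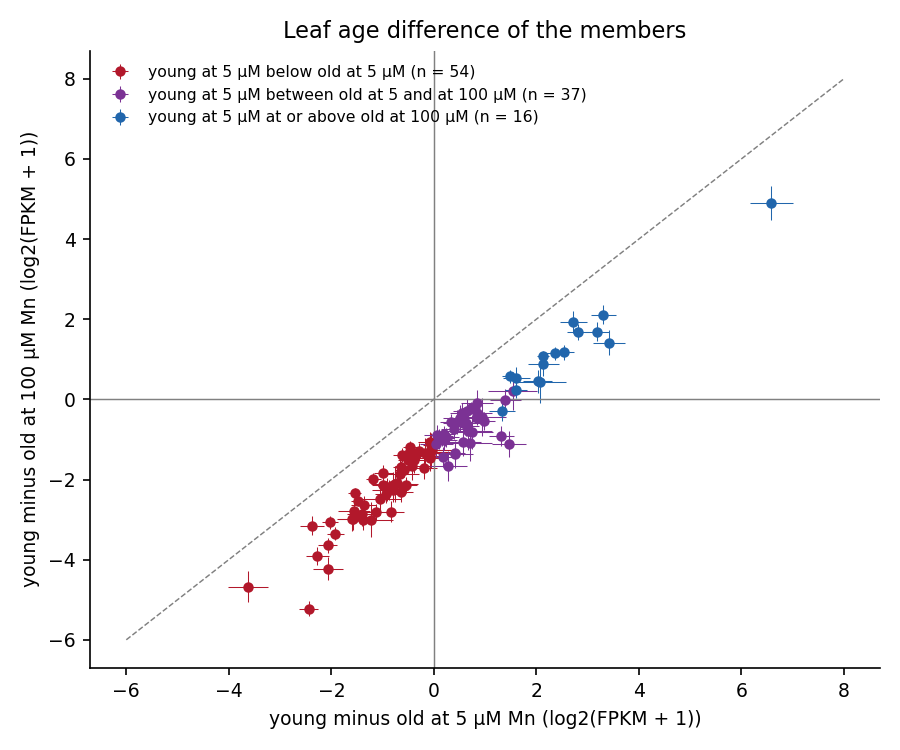
Young minus old leaves in log2(FPKM + 1) at 5 µM Mn (x axis) and 100 µM Mn (y axis) for the 107 members, with standard errors of the limma model; colours give the 54, 37 and 16 members by the young-leaf level at 5 µM. Points lie below the dashed line of equal difference, which the selection fixes, and run from members far lower to members far higher in young leaves.

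The same classes were set beside the other genes that met the old-leaf conditions, as a description, since all of these have old-leaf means that lie apart. Young leaves at 5 µM were at or above old leaves at 100 µM in 16 of the 107 members, in 3.2% of the 249 genes with R in young leaves above 0.3 and below 1, and in 0.0% of the 231 genes with R of 1 or higher there. The median level in young leaves at 5 µM was 6.57, 4.26 and 1.81 FPKM in the same order. A high level at 5 µM lowers R in young leaves, so the conditions on R bear on this order.

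In old leaves at 5 µM, on FPKM as deposited, the order of the libraries in members differed from that in all genes. Among the 3 old-leaf libraries at 5 µM, replicate 1 was the highest in 72 of 107 members (67.3%) and in 24.6% of all genes tested, while replicate 3 was the highest in 17.8% of the members and in 60.1% of all genes. The no-overlap condition used these libraries but treats the 3 replicates alike, and its part in this order was not tested. Scaling bears on the order, with median-of-ratios factors of 0.96, 0.875 and 1.146 for replicates 1 to 3 of this group. After rescaling, replicate 1 was the highest in 71 members, and the share over all genes was not computed. The median over members was 13.1, 15.8 and 15.4 FPKM in replicates 1 to 3 of old leaves at 100 µM, and 6.42, 3.90 and 4.26 in those of old leaves at 5 µM. Of the 249 genes with R in young leaves above 0.3 and below 1, 66.7% had replicate 1 highest, and of the 231 with R of 1 or higher 35.5%.

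In young leaves no condition concerned the order of the libraries. At 100 µM replicate 2 was the highest of its group in 70 members (65.4%), against 37.8% of all genes tested. It was the highest in 48.6% of the 249 genes with R in young leaves above 0.3 and below 1. In the 231 genes with R of 1 or higher there, the share was 42.9%. The medians over members were 5.92, 7.64 and 4.97 FPKM in replicates 1 to 3. Replicate 2 was highest at 100 µM in both leaf ages in 31 members (29.0%), against 15.2% of all genes. In old leaves at 100 µM alone it was highest in 34.6% of members and 33.9% of all genes. The larger share of members in young leaves thus bears on the joint share, and a link between leaf ages was not tested. Glyma.05G033000 was one, with 9.28, 31.9 and 15.4 FPKM in old leaves at 100 µM and 5.41, 13.5 and 5.14 in young leaves at 100 µM, against 7.20, 2.69 and 3.01 in old leaves and 8.22, 6.21 and 6.80 in young leaves at 5 µM.

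The 6 members that limma did not call in old leaves (adjusted p of 0.0503 to 0.0979) all had replicate 2 highest at 100 µM in both leaf ages. Glyma.19G255200 had 14.6, 51.1 and 22.4 FPKM in old leaves at 100 µM, against 12.2, 6.69 and 10.6 at 5 µM, and 8.11, 30.0 and 12.2 in young leaves at 100 µM, against 13.3, 15.6 and 18.96 at 5 µM. Glyma.15G258100 had 30.9, 47.9 and 29.6 in old leaves at 100 µM, against 14.3, 13.8 and 17.0 at 5 µM, and 2.84, 18.4 and 6.86 in young leaves at 100 µM, against 6.29, 11.3 and 8.27 at 5 µM. In both genes the young-leaf values at 5 µM lay within the range of those at 100 µM. The part that differences between replicates, such as growth or sampling, had in these values was not tested.

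**Figure D4:**
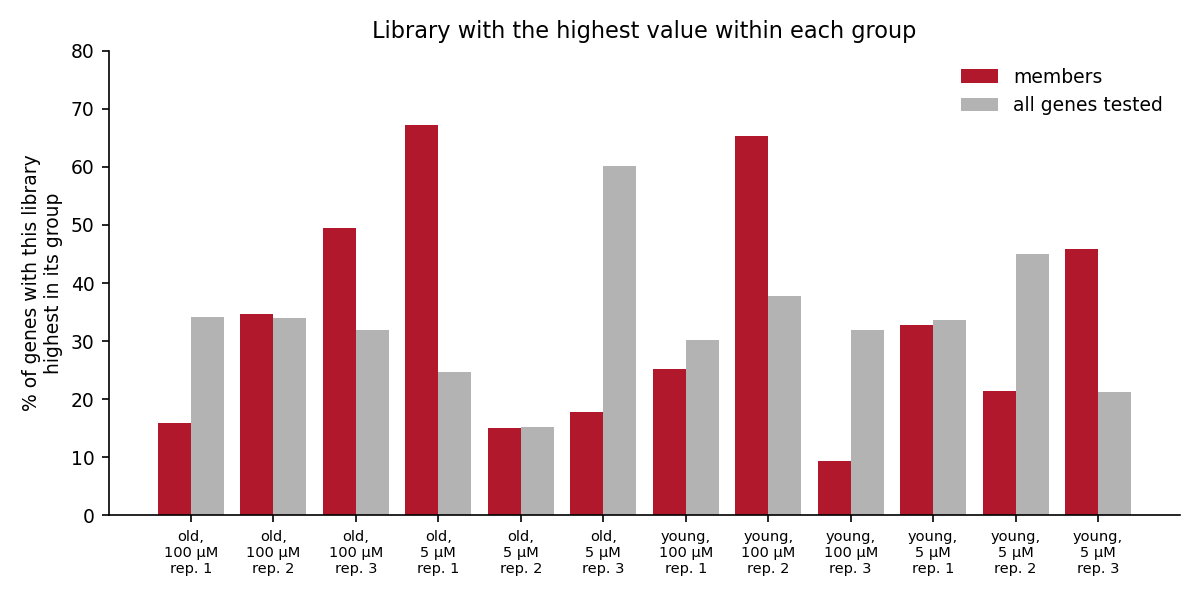
Share of genes (y axis, percent, from 0) for which each library (x axis) was the highest of its group of 3; red bars are the 107 members, grey bars all 28267 genes tested. Replicate 1 of old leaves at 5 µM led in 67.3% of members and replicate 2 of young leaves at 100 µM in 65.4%, against 24.6% and 37.8% of all genes.

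**Figure D5:**
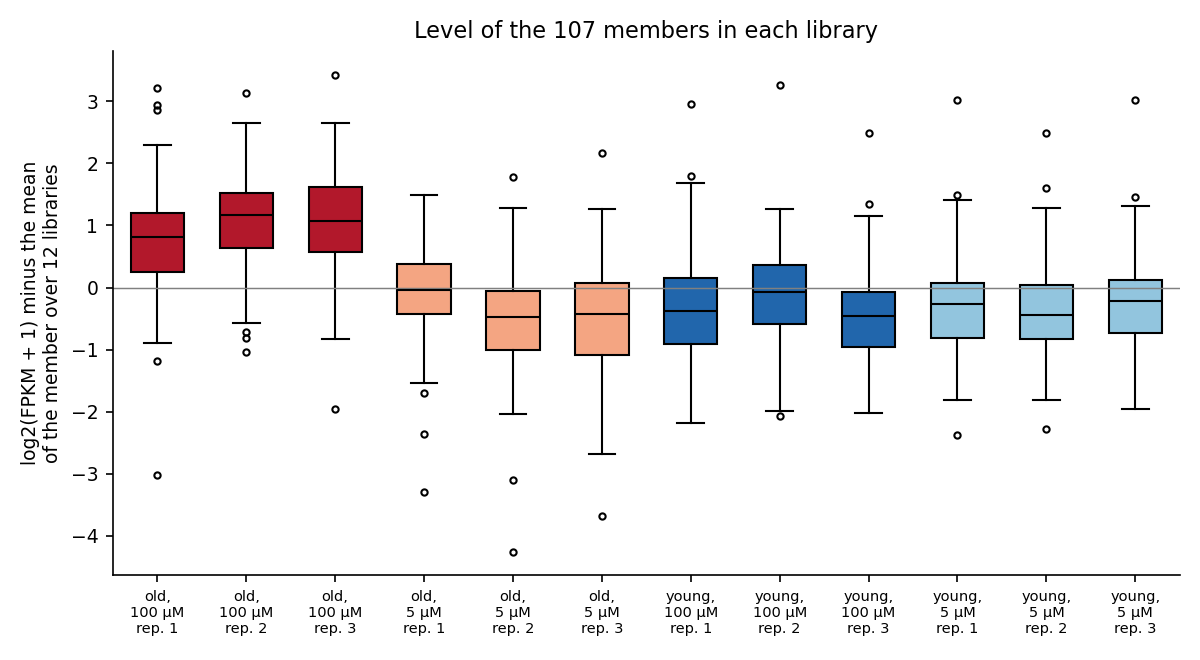
Level of the 107 members in each library (x axis) as log2(FPKM + 1) minus the mean of the member over the 12 libraries (y axis); boxes span the quartiles with the median as a line, whiskers reach 1.5 times the box height and circles are members beyond. The old-leaf libraries at 100 µM are highest by the selection, and replicate 1 of old leaves at 5 µM and replicate 2 of young leaves at 100 µM have the highest medians of their groups.

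Properties that the selection did not use gave few common features. The gene length solved from the FPKM values had a median of 1450 bases in members and 1873 bases in all genes tested, and ran from 446 to 4307 in members. The other genes that met the old-leaf conditions had medians of 1668 bases (R in young leaves above 0.3 and below 1) and 1539 bases (R of 1 or higher). By the chromosome number in the ID, members lay on all 20 chromosomes, with the most on chromosome 8, which held 15 (14.02%, beside 7.04% of all genes tested). None of the 107 was next to another member in the list ordered by ID, and 1 pair lay within 10 places. The 159 tested genes next to a member had a median R of 0.10 in old and 0.28 in young leaves, close to the 0.07 and 0.27 of all genes tested.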

How the data were processed

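The authors deposited 1 table of FPKM for 39811 genes and 12 libraries; its unit is given by the labels and the file, and its IDs are of the Wm82.a2.v1 annotation. Bowtie2 2.2.3, HISAT2 2.1.0 and DESeq2 1.6.3 are named, with no role, in the submitters' processing notes; the counting rule is not given in the sources used here. Fragment totals and gene lengths were solved from the FPKM values, since FPKM times total times length must be a whole number; all 39811 genes came within 0.02 of one in all 12 libraries. Each replicate pair differed by more than sampling noise (chi-square per gene of at least 8.41).

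The members were selected on group means of FPKM. R 4.3.3 and limma 3.58.1 fitted 4 group means to log2(FPKM + 1), a scale that understates changes of low genes, with trended variances and 2-sided tests; the script was tested on simulated data. Members and lists were chosen with earlier results of these data known. Genes named were the 2 with the highest R, the 2 most abundant, and the nearest inside and outside the old-leaf limit; the others named were chosen after their values were seen. The planned function, marker and promoter motif lists could not be applied without gene names or sequences. Intervals cover the fitted spread between libraries.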

Additional observations from a re-analysis of the deposited data

Results flagged for a closer look

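The response to Mn differed between old and young leaves, by limma's test of the difference itself, in 46 of the 107 members. Each had the larger rise in old leaves on the log2(FPKM + 1) scale, beside 0.916% of all genes. As a ratio without the added 1, the rise was not larger in old leaves for each of them. Glyma.10G167100, 1 of the 46, had means of 5.25 at 100 µM against 1.98 FPKM at 5 µM in old leaves. In young leaves its means were 0.248 against 0.018. The selection was made on both responses, so the direction was fixed and the count describes how many members passed the test, not how often such a difference occurs.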

How the results depend on the processing

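The 107 members depended on the added 1 and on single libraries. With 5 added in place of 1, 54 genes met the rule, 40 of them members. Leaving out 1 library gave 96 to 208 genes, with 208 without replicate 1 of old leaves at 5 µM and 170 without replicate 1 of old leaves at 100 µM. Median-of-ratios rescaling gave 122 genes, 70 of them members. Members called in old leaves numbered 47 when the 6 old-leaf libraries were fitted alone, beside 1.82% of all genes called higher. Members called in young leaves numbered 4 with 0.1 added, 0 with no filter on low values, 6 after rescaling, 0 with the replicate block, 7 with the compared libraries alone, 6 with group weights and 3 with voom on the recovered fragments, and 0 to 3 when 1 library was left out. The difference between responses was called above 0 in 30 members with 0.1 added, beside 177 of the 28267 genes. It was called above 0 in 28 members with voom, beside 133 genes. Leaving out 1 library gave 7 to 67 members, beside 34 to 636 genes. For leaf age at 100 µM, 11 of the 74 members with a mean of at least 5 FPKM were called higher in young leaves and 43 lower, 54 in all, beside 18.6% and 20.3% of the genes in that fit. The labels do not say whether replicate numbers pair the samples, and correlations of deviations in groups of 3 cannot decide it. Between Mn levels the deviations of same-numbered libraries correlated at -0.47 to -0.118 in old leaves and -0.093 to 0.149 in young leaves. Between leaf ages they correlated at -0.134 to 0.239 at 5 µM and -0.085 to 0.227 at 100 µM, where replicate 2 had the highest value. With the number as a replicate block, 93 members were called higher in old leaves, beside 2411 of the 28267 genes. For the difference 31 members were called above 0, beside 138 genes. For Glyma.11G124000, with no fragment in young leaves at 5 µM, voom turned the difference to -0.69 (adjusted p = 0.758); the cause was not tested. Rescaling left 26 members higher and 28 lower in young leaves at 5 µM, beside 22.4% and 21.2% of all genes.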
